A study of Arabidopsis thaliana with 12 samples.

Results

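The effect of CCA1 overexpression on RNA levels was compared between the shoots and the roots of Arabidopsis thaliana seedlings. A gene entered where its mean level was at least 1 FPKM, a fragment number scaled to gene length and sequencing depth, in at least 1 shoot group and in at least 1 root group. This held for 17142 of the 33010 genes in the deposited table, and 11700 of them reached 5 FPKM in both organs. Of the rest, 1854 genes met the minimum in shoots alone, 2108 in roots alone and 11906 in neither organ. RNA was sequenced from 4 groups of 3 libraries: shoots and roots of wild-type Col-0 (WT), and shoots and roots of plants that overexpress CCA1 (CCA1-ox), all from seedlings grown for 8 days at 22 °C under constant white light (15 µE). The labels name neither the promoter that drives CCA1-ox nor the time of day of harvest. They name no separate cultures either, so p-values measure the spread among these libraries, which may be technical.

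CCA1 encodes a MYB factor of the plant clock that peaks around dawn and mainly represses genes expressed later in the day, many of them through a short promoter sequence called the evening element. Constant overexpression of CCA1 is known to stop rhythmic expression of many clock-controlled genes. Shoots and roots each run a clock, and its output genes differ between the organs, since many of them serve photosynthesis in leaves or the uptake of water and ions in roots.

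CCA1 itself (AT2G46830, chromosome 2, 19245591 to 19248915 on TAIR10) is the check of the labels. Its level was 44.9, 45.2 and 44.8 FPKM in the WT shoot libraries and 214, 216 and 212 FPKM in the CCA1-ox shoot libraries. The WT root libraries held 17.2, 16.2 and 17.9 FPKM and the CCA1-ox root libraries 172, 172 and 179.6 FPKM. Every CCA1-ox library stood above every WT library of its organ. The log2 change was 2.23 in shoots and 3.28 in roots. The difference of 1.05 ± 0.0449 (SE) had an adjusted p of 5.04e-10 (limma). Libraries held 27142671 to 45051329 fragments in genes. Within groups the median coefficient of variation was 3.11% to 3.66% over genes with many fragments, and genes with few were left out of it.

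The difference between the organs is called the interaction below. It is the CCA1-ox minus WT change in roots minus the same change in shoots, on the log2(FPKM + 1) scale, and it is above 0 where the change in roots was the higher of the pair. It passed at an adjusted p under 0.05 (limma, Benjamini-Hochberg over the 20976 genes fitted) for 8773 of the 17142 genes, or 51.2%, against 50.7% of all genes fitted. The root change was the higher one in 4522 genes (26.4%) and the lower one in 4251 (24.8%). In 1789 of the called genes the difference was under 0.25. A difference of at least 1 was found in 119 genes in the first direction and in 815 in the second, and these counts were 48 and 323 with a pseudocount of 5 and 200 and 1318 with voom on the recovered fragments. The median over all 17142 genes was 0.022 and the range −6.34 to 2.25. With scaling to the summed fragments in place of the authors' scaling, the median moved by −0.16 and the share of calls with the higher change in roots went from 51.5% to 24.1%, so the even split between directions rests on the scaling.

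CCA1-ox changed more genes in shoots than in roots. The change was called in 58.7% of the 17142 genes in shoots and in 36.2% in roots, and the SD of the log2 changes was 0.492 and 0.293. Of the 4478 genes called in both organs, 2497 (55.8%) moved the same way and 1981 moved in opposite ways. Across genes, the changes in the 2 organs had a Pearson correlation of 0.156 and a Spearman correlation of 0.0955, a description over genes that share the 12 libraries.

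**Figure D1:**
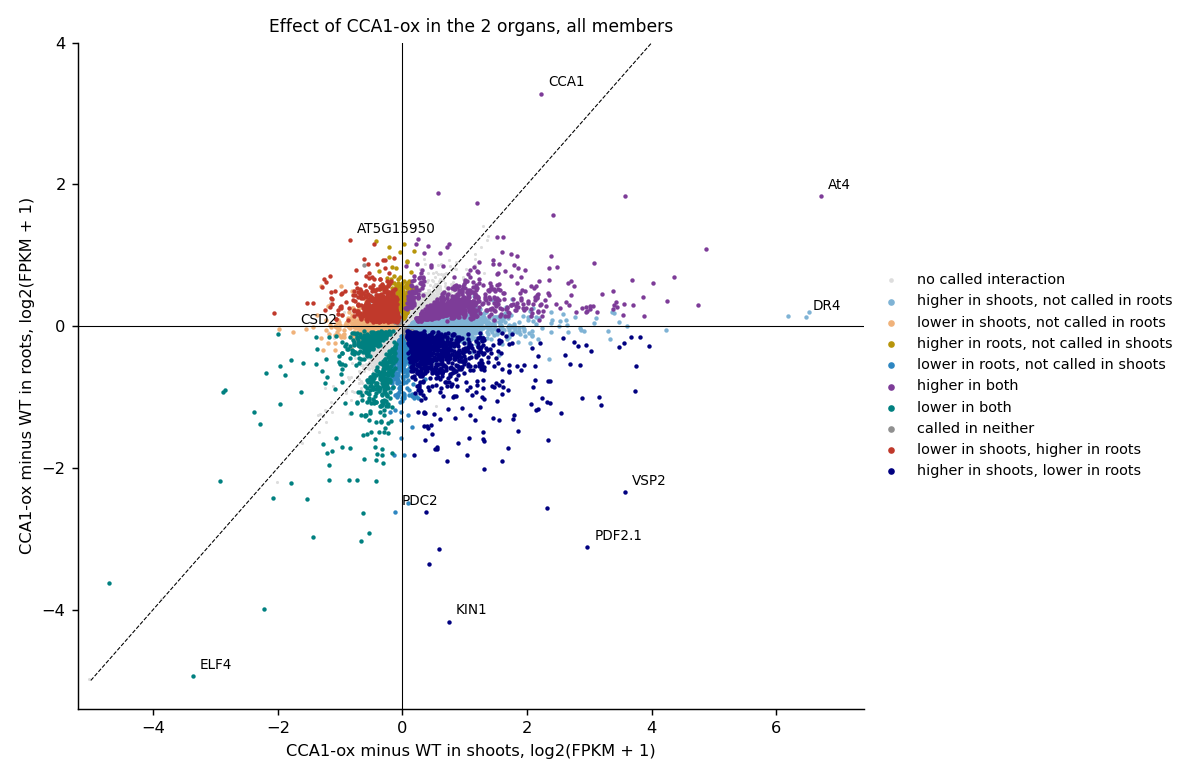
Log2 change of CCA1-ox against WT in shoots (horizontal axis) and in roots (vertical axis), on the log2(FPKM + 1) scale, for the 17142 genes expressed in both organs. Each point is 1 gene coloured by its calls, and points on the dashed line changed equally. The cloud is wider along the shoot axis (SD 0.492) than along the root axis (SD 0.293), and PDF2.1, VSP2 and KIN1 lie at the lower right, higher in CCA1-ox shoots and lower in CCA1-ox roots.

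Genes with a called interaction were sorted by the call in each organ. Opposite calls were found in 1021 genes that were lower in CCA1-ox shoots and higher in CCA1-ox roots, and in 960 genes with the reverse, together 11.6% of the 17142 genes. A call in shoots alone was more common, with 2333 genes lower and 1796 genes higher. A call in roots alone was found in 607 higher and 519 lower genes. Both organs moved the same way by unequal amounts in 704 higher genes, 618 of which rose more in shoots, and in 502 lower genes, of which 269 fell more in shoots and 233 more in roots. Neither organ alone passed in 331 genes.

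**Figure D2:**
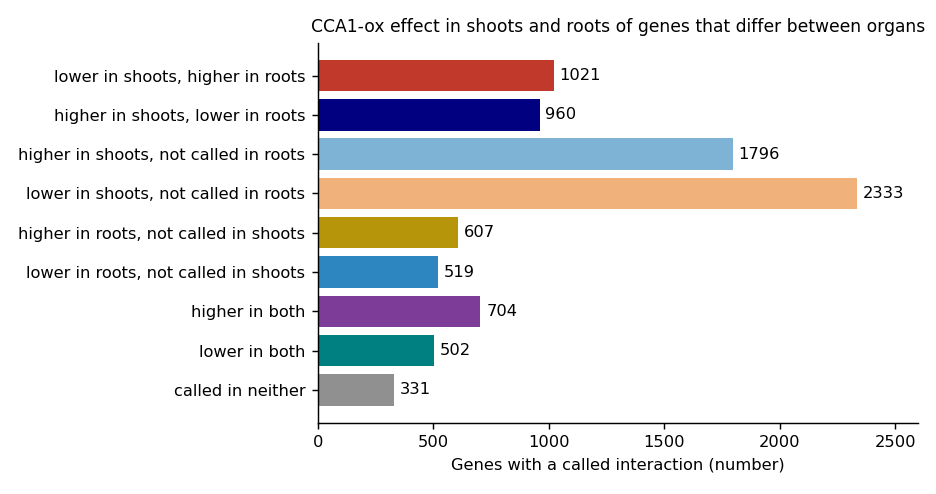
Number of genes with a called interaction (horizontal axis) by the call in shoots and in roots. The genes called in shoots alone give the longest bars, with 2333 and 1796 genes, and the opposite groups hold 1021 and 960.

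The opposite groups differed in the size of their changes. In the 1021 genes lower in shoots and higher in roots the median log2 change was −0.26 in shoots and 0.19 in roots, and 71 genes had an interaction of at least 1. In the 960 genes higher in shoots and lower in roots the medians were 0.40 and −0.31, and 366 genes had an interaction of −1 or below. WT roots held more than WT shoots for 44.6% of the first group and for 71.6% of the second. With scaling to the summed fragments the first group shrank to 376 genes and the second grew to 1774, among them all 960 of the authors' scaling.

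The promoters of genes with opposite changes are shown first, since CCA1 binds the evening element. The letters AAATATCT (evening element) and AAAAATCT (CCA1-binding site), which differ in 1 base, were searched on both strands of the 250 bases before each RefSeq gene start on TAIR10.1. Of 48 named genes with opposite changes, 7 held at least 1 match. The 4 with an evening element are printed because they stand on both sides of the pattern: PDF2.1, KIN1 and PWD were higher in shoots and lower in roots, and AMT1;2 the reverse. The windows are chr2:538000-538249 (plus strand) for PDF2.1, chr5:5209467-5209716 (plus) for KIN1, chr5:9261229-9261478 (plus) for PWD and chr1:24062805-24063054 (minus) for AMT1;2. Each is written 5′ to 3′ on the strand of its gene with the motifs in capitals. In KIN1 and PWD the match lies on the other strand, and AMT1;2 also holds the CCA1-binding site, as its second block of capitals.
PDF2.1: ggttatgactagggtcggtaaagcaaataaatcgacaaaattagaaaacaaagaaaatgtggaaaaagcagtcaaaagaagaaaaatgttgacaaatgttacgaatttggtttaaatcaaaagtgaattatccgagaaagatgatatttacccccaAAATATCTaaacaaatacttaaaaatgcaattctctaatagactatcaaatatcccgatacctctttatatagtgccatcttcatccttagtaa
KIN1: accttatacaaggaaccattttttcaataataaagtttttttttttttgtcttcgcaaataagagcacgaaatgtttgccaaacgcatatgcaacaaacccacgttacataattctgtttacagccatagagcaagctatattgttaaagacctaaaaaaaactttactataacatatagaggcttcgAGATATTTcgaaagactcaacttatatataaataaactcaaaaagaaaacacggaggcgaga
PWD: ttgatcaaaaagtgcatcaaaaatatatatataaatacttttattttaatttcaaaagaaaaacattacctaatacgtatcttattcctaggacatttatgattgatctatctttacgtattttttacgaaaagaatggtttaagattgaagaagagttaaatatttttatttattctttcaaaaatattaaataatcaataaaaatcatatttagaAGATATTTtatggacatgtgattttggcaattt
AMT1;2: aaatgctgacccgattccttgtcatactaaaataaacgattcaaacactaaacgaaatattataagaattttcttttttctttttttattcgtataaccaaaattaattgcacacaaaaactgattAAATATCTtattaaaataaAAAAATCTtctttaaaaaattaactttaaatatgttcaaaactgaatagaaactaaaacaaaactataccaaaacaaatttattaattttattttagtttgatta

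The evening element was in 4.56% of the 32530 promoters read and in 4.86% of the 17034 from genes expressed in both organs. It was in 8.59% of promoters of genes higher in shoots and lower in roots, and in 3.53% of those lower in shoots and higher in roots. Genes lower in both organs held it in 10.2%, genes higher in shoots alone in 6.51% and genes lower in shoots alone in 3.35%. The CCA1-binding site was in 7.54% and 5.79% of the opposite groups and in 6.83% of all promoters of genes expressed in both organs. These shares describe letters in a window and were not tested.

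PDF2.1 (AT2G02120, chromosome 2, 538250 to 539123), a small secreted protein of the plant defensin family, was higher in CCA1-ox shoots and lower in CCA1-ox roots. The WT shoot libraries held 0.238, 0.458 and 0.426 FPKM and the CCA1-ox shoot libraries 11.6, 7.83 and 10.07 FPKM. The root libraries held 251, 256 and 271 FPKM in WT and 30.4, 25.6 and 31.3 FPKM in CCA1-ox. Groups did not overlap in either organ. PDF2.1 met the minimum in shoots through CCA1-ox alone, so its rise there is in part fixed by the choice. The ratio of group means was 26.2 upward in shoots and 8.91 downward in roots, and the interaction was −6.08 ± 0.156 (SE, adjusted p = 3.13e-12, limma).

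VSP2 (AT5G24770), a vegetative storage protein that jasmonate induces, moved the same way. Shoots held 2.15, 2.17 and 1.51 FPKM in WT and 33.0, 33.3 and 34.9 FPKM in CCA1-ox. Roots held 4.98, 4.63 and 5.29 FPKM in WT and 0.111, 0.164 and 0.249 FPKM in CCA1-ox. WT roots were above WT shoots, and CCA1-ox roots were far below CCA1-ox shoots. The interaction was −5.91 ± 0.122 (adjusted p = 4.62e-13, limma), −3.43 with a pseudocount of 5 and −8.91 with voom on the recovered fragments. The near copy VSP1 (AT5G24780) had −3.16 (−1.83 with that pseudocount), and fragments shared by the pair may be assigned to either gene. VSP2 met the minimum in roots through WT alone and VSP1 in shoots through CCA1-ox alone. These changes are thus in part fixed by the choice.

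PSK4 (AT3G49780), a precursor of the growth peptide phytosulfokine, ranged over 2.75 to 3.34 FPKM in WT shoots and 10.2 to 11.1 FPKM in CCA1-ox shoots. Its root libraries ranged over 84.5 to 85.8 FPKM in WT and 32.7 to 34.2 FPKM in CCA1-ox. MES9 (AT4G37150), an esterase that removes methyl groups from hormone esters, ranged over 1.63 to 2.12 FPKM (WT) and 8.88 to 9.1 FPKM (CCA1-ox) in shoots, and over 8.91 to 10.01 FPKM and 2.99 to 3.36 FPKM in roots. Both went from root-rich in WT to a smaller or reversed organ difference in CCA1-ox. AT5G44400, a berberine-bridge-type oxidase gene by its RefSeq name, had mean levels of 15.4 and 48.7 FPKM in shoots and 10.3 and 2.03 FPKM in roots. AT3G45160, a putative membrane lipoprotein, and AT2G01610, a pectin methylesterase inhibitor family gene, had interactions of −3.05 and −3.33. With a pseudocount of 5 that of MES9 went from −3.09 to −1.83.

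In the other direction, AT5G15950 (chromosome 5, 5205869 to 5208036), an S-adenosylmethionine decarboxylase gene of polyamine synthesis, was picked for the size of its smaller change. Shoots held 26.4, 26.4 and 26.1 FPKM in WT and 13.5, 15.1 and 13.9 FPKM in CCA1-ox. Roots held 6.98, 6.89 and 5.63 FPKM in WT and 16.7, 16.6 and 15.6 FPKM in CCA1-ox. The WT shoot level was well above the WT root level, and in CCA1-ox the root level was the higher of the pair. The interaction was 2.06 ± 0.0915 (adjusted p = 7.81e-10, limma). KIN1 starts at 5209717 on the same strand, close downstream, and moved the other way in both organs.

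The 5 further genes of this direction were picked by the same rule. GRF11 (AT1G34760), a 14-3-3 protein, ranged over 17.36 to 20.4 FPKM in WT shoots and 6.52 to 8.77 FPKM in CCA1-ox shoots, with 2.77 to 3.14 and 4.82 to 5.67 FPKM in the roots. AT1G72430, a gene of the auxin-responsive SAUR family by RefSeq, ranged over 40.1 to 43.4 (WT) and 15.8 to 18.3 FPKM (CCA1-ox) in shoots and over 11.2 to 13.4 and 19.6 to 22.4 FPKM in roots. AT5G14330, an uncharacterised gene, was root-rich, with 81.4 to 91.8 FPKM in WT roots and 131 to 153 FPKM in CCA1-ox roots, and its shoot range went from 5.63 to 6.28 down to 1.83 to 2.36 FPKM. HR4 (AT3G50480), a homolog of the RPW8 resistance genes, and the uncharacterised AT1G22890 had interactions of 1.36 and 1.54. With a pseudocount of 5 that of HR4 was 0.81.

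**Figure D3:**
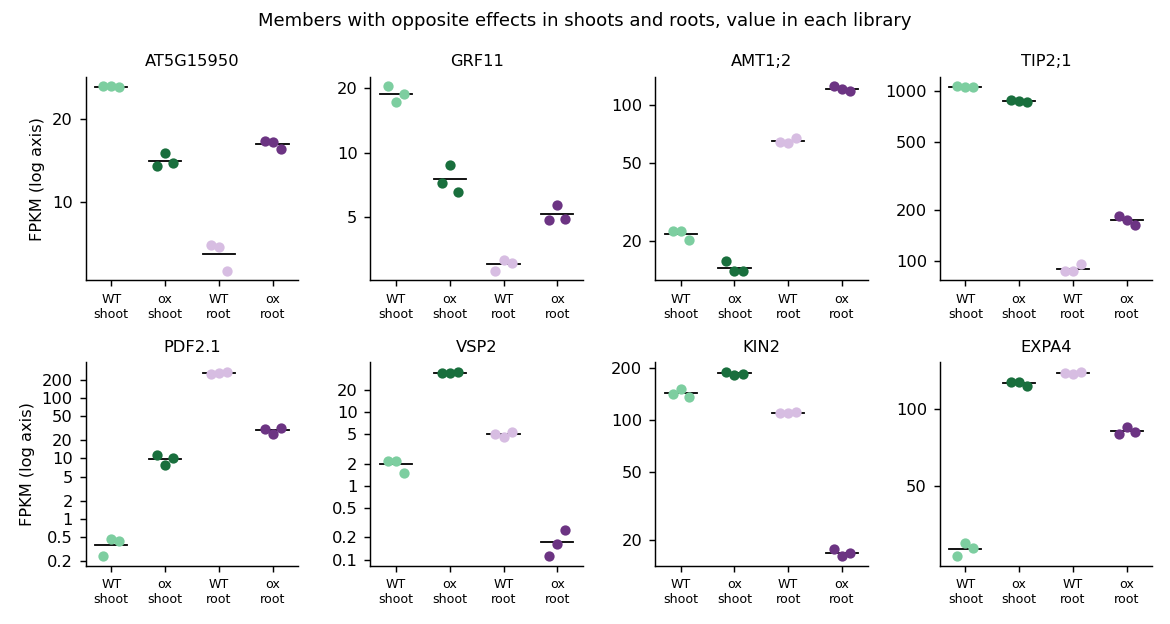
FPKM (log axis) in each of the 3 libraries per group, with bars at the group means, for 8 genes with opposite changes. AT5G15950, GRF11, AMT1;2 and TIP2;1 are lower in CCA1-ox shoots and higher in CCA1-ox roots, and PDF2.1, VSP2, KIN2 and EXPA4 the reverse, with PDF2.1 falling from 259 to 29.1 FPKM in mean root level.

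Cold and dehydration genes were higher in CCA1-ox shoots and lower in CCA1-ox roots. Of 22 listed genes 16 were expressed in both organs. The interaction was called below 0 in 14 of the 16 and above 0 in none, against 24.8% and 26.4% of all genes tested, and 13 had opposite calls, against 11.6%. The median change was 0.50 in shoots and −0.68 in roots, and the median interaction −1.35, against 0.022 over all genes. Of the 16, 1 met the minimum in shoots through CCA1-ox alone and 2 in roots through WT alone. Their interactions were all called below 0, so these counts carry in part the choice of genes. KIN1 (AT5G15960), a small cold-induced protein, was at 0.738, 0.612 and 0.601 FPKM in WT shoots and 1.79, 2.12 and 1.43 FPKM in CCA1-ox shoots. In the roots it went from 34.2, 32.4 and 29.6 FPKM (WT) to 0.971, 0.827 and 0.712 FPKM (CCA1-ox). Most of the WT root level was lost in CCA1-ox, with an interaction of −4.92 ± 0.13 (adjusted p = 4.32e-12, limma), or −2.93 with a pseudocount of 5. KIN1 met the minimum in shoots through CCA1-ox alone and in roots through WT alone, so its changes are in part fixed by the choice. Its near copy KIN2 (AT5G15970) was abundant in both organs, at 135 to 150.2 (WT) and 182 to 189 FPKM (CCA1-ox) in shoots and 109 to 110.1 and 16.2 to 17.8 FPKM in roots.

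RD29A (AT5G52310), a hydrophilic protein induced by cold, drought and abscisic acid, ranged over 7.89 to 8.27 and 17.2 to 17.9 FPKM in WT and CCA1-ox shoots and over 9.59 to 10.4 and 1.95 to 2.17 FPKM in the roots. The interaction was −2.85, or −1.86 with a pseudocount of 5. Dehydrins moved alike. COR47 changed by 0.54 in shoots and −0.83 in roots, LTI30 by 1.71 and −0.65, RAB18 by 0.35 and −1.4, and ERD14 by 1.24 and −0.1. P5CS1, an enzyme of proline synthesis, changed by 1.05 and −0.11. RCI2A was called in roots alone, and COR413IM2 and RCI2B had no called interaction. Regulators of these genes were less uniform: 5 of 8 had a called interaction below 0 and none above 0, against 24.8% and 26.4% of all genes. Of the 8, 3 met the minimum in shoots through CCA1-ox alone, and 2 of those were called below 0. This count thus carries in part the choice of genes. RAV1 (0.46 and −0.54) and CZF1 (0.14 and −0.22) had opposite calls.

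Genes of aliphatic glucosinolates, sulfur-rich defence compounds made from methionine, showed the same directions. Of 15 genes expressed in both organs, 14 had a called interaction below 0 and 1 (BCAT3) above 0, against 24.8% and 26.4% of all genes. The median was −0.98, and 10 had opposite calls, against 11.6%. CYP79F2 (AT1G16400), which makes the oximes of long-chain aliphatic glucosinolates, was at 6.96, 6.63 and 7.02 FPKM in WT shoots and 29.0, 28.0 and 27.8 FPKM in CCA1-ox shoots. Its root libraries held 15.4, 16.3 and 15.2 FPKM in WT and 9.62, 9.93 and 9.98 FPKM in CCA1-ox. The groups were apart in both organs. BCAT4, which starts methionine chain elongation, changed by 0.98 in shoots and −0.53 in roots, and CYP83A1, which acts after CYP79F2, by 0.39 and −0.6. MAM3 (AT5G23020), a chain elongation enzyme with the near copy MAM1, changed by 3.88 and 0.14, and its interaction of −3.73 was −2.24 with a pseudocount of 5. The regulator MYB28 rose in shoots (0.69), and its root change of 0.03 was not called.

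Indolic glucosinolate genes, which start from tryptophan, were higher in both organs in most cases. All 10 expressed in both organs were called higher in shoots and 8 were called higher in roots. Of all genes, 58.7% were called in shoots and 36.2% in roots, counting both directions. The interaction was called below 0 in 8 and above 0 in none, against 24.8% and 26.4% of all genes. No gene of the list had opposite calls. CYP79B2 (AT4G39950), which makes indole oxime, changed by 1.4 in shoots and 0.49 in roots. CYP81F4 (AT4G37410), which modifies the indole ring, ranged over 661 to 708 FPKM in WT roots and 667 to 691 FPKM in CCA1-ox roots, which overlapped, while its shoot range was 4.2 to 4.9 FPKM without and 66.4 to 68.3 FPKM with overexpression.

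Jasmonate genes had a called interaction below 0 in 12 of 15 and above 0 in none, against 24.8% and 26.4% of all genes. The median changes were 0.47 in shoots and 0.10 in roots. Of the 15, VSP1 met the minimum in shoots through CCA1-ox alone and VSP2 in roots through WT alone. VSP1, VSP2 and the transcription factor MYC3 had opposite calls, and MYC2, the central activator of the pathway, was higher in both organs (1.0 and 0.23). JAZ1, a repressor of the response, changed by 1.36 and 0.23, an interaction of −1.13 that was −0.43 with a pseudocount of 5. Of 9 genes of salicylic acid immunity, 4 had a called interaction above 0 and 1 (EDS5) below 0, against 26.4% and 24.8% of all genes, and with scaling to the summed fragments 3 and 2. CBP60G, an activator of salicylic acid synthesis and among the 4, changed by −0.32 in shoots and 0.59 in roots. It met the minimum in shoots through WT alone, so its fall there is in part fixed by the choice.

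Phosphate starvation genes rose in CCA1-ox shoots. Of 17 expressed in both organs, 14 were called higher in shoots and 5 higher in roots. Of all genes, 58.7% were called in shoots and 36.2% in roots, counting both directions. The interaction was called below 0 in 12 and above 0 in 2, against 24.8% and 26.4% of all genes. The median change was 1.11 in shoots and 0.07 in roots. Of the 17, 3 met the minimum in shoots through CCA1-ox alone, among them At4 and PS2. All 3 were called below 0, so these counts and medians carry in part the choice of genes. At4 (AT5G03545), a noncoding RNA that sequesters the phosphate-responsive microRNA miR399, was at 0.565, 0.171 and 0.399 FPKM in WT shoots and 153, 141 and 134 FPKM in CCA1-ox shoots. Root libraries held 13.3, 11.9 and 11.6 FPKM in WT and 48.5, 45.4 and 45.5 FPKM in CCA1-ox. WT roots were above WT shoots, and CCA1-ox shoots were above every root library. The interaction of At4, listed as AT4, was −4.87 ± 0.124 (adjusted p = 2.94e-12, limma), or −3.2 with a pseudocount of 5.

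Other phosphate genes rose in shoots without a rise in roots. PS2 (AT1G73010), a phosphatase, was at 0.0213, 0.102 and 0.0571 FPKM in WT shoots and 10.7, 10.6 and 11.1 FPKM in CCA1-ox shoots, and its root ranges of 1.58 to 1.88 and 1.68 to 2.18 FPKM overlapped. Its interaction moved from −3.41 to −1.61 with a pseudocount of 5 and to −7.35 with voom. The phosphate exporters PHO1 and PHO1;H1, which load phosphate into the xylem, and PHO2, which limits that transport, were higher in shoots (1.77, 1.18 and 1.1) and lower in roots (−0.11, −0.22 and −0.26).

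Of 13 sulfur genes 7 had a called interaction below 0 and 4 above 0, against 24.8% and 26.4% of all genes, and none had opposite calls. LSU1 (AT3G49580), a marker of sulfur deficiency, changed by 3.7 in shoots and 0.29 in roots, and its interaction of −3.41 was −1.62 with a pseudocount of 5. APR2 (AT1G62180), which reduces activated sulfate, was lower in shoots alone, with ranges of 99.1 to 104 and 47.7 to 49.4 FPKM in WT and CCA1-ox shoots and 38.3 to 39.7 and 40.00 to 40.7 FPKM in the roots. Its relative APR1 was higher in both organs (1.18 and 0.57), and APR3 was higher in roots alone (0.4).

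Suberin genes, whose product seals the root endodermis and periderm, were included in 13 cases, 9 of which met the minimum in shoots through CCA1-ox alone, the group where they are high. All 9 are among the 12 called below 0, so these counts and the list's medians carry the choice of genes. The median interaction of −1.42 was −0.40 with a pseudocount of 5 and −3.56 with voom, and KCS20 was called above 0. CYP86A1 (AT5G58860), a fatty acid hydroxylase, was at 0.418, 0.745 and 0.695 FPKM in WT shoots and 12.3, 11.99 and 13.2 FPKM in CCA1-ox shoots. Its root ranges were 113 to 114 FPKM in WT and 134 to 145 FPKM in CCA1-ox. The CCA1-ox shoot level stayed far below that of roots. FACT and FAR5, which make fatty alcohol esters and fatty alcohols, changed by 2.18 and 2.15 in shoots, and their root changes of −0.18 and 0.13 were not called. These levels are near 0 in WT shoots, and with a pseudocount of 5 the interactions of CYP86A1, FACT and FAR5 went from −2.79, −2.35 and −2.02 to −1.37, −1.01 and −0.67.

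Xylem and secondary wall genes rose in shoots, and few were called in roots. Of 11, 10 were higher in CCA1-ox shoots and 2 in CCA1-ox roots, and 9 had a called interaction, all below 0. Of all genes, 58.7% were called in shoots and 36.2% in roots, counting both directions. The interaction was called below 0 in 24.8% of all genes and above 0 in 26.4%. LAC4 (AT2G38080), a laccase of lignin formation, ranged over 6.32 to 8.25 FPKM in WT shoots and 16.4 to 17.58 FPKM in CCA1-ox shoots, while the root ranges of 26.0 to 27.2 and 25.1 to 27.6 FPKM overlapped. The cellulose synthases of the secondary wall CESA4, CESA7 and CESA8 rose by 0.9, 0.91 and 0.85 in shoots. Endodermis markers were called higher in 8 of 10 cases in shoots and in 10 of 10 in roots, with 5 interactions below 0 and 2 above 0. Of the 10, 2 met the minimum in shoots through CCA1-ox alone, and both were called below 0. With a pseudocount of 5 the median interaction of endodermis markers turned from −0.32 to 0.079. In bulk organs, a change in the number of cells of a type and in RNA per cell cannot be told apart.

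Markers of root hairs, which leaves lack, were used to read root material in the shoot libraries. Their sum over 14 genes was 1.29 to 1.42 FPKM in WT shoots and 0.859 to 0.870 FPKM in CCA1-ox shoots, against 178.0 to 181.6 and 245.4 to 260.1 FPKM in the roots. COW1 made up most of the shoot sum, and 9 of the 14 in WT shoots and 6 in CCA1-ox shoots were at 0 in every library. Without COW1 the sum was 0.0430% of the WT root sum in WT shoots and 0.156% in CCA1-ox shoots. The summed light-harvesting and Rubisco small subunit genes were read for shoot material in roots. Their root sum was 134.4 to 139.8 FPKM without and 132.7 to 146.7 FPKM with overexpression, with 2 of 25 at 0 in both. LHCB1.5, the highest of them in roots, had a mean of 35.45 FPKM without and 65.84 FPKM with overexpression. Genes with a mean root level under 1 FPKM numbered 10 of 25 without and 15 with overexpression. The near-equal sums thus rest in part on LHCB1.5. Whether the genotypes held equal shoot material in roots was not tested.

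**Figure D4:**
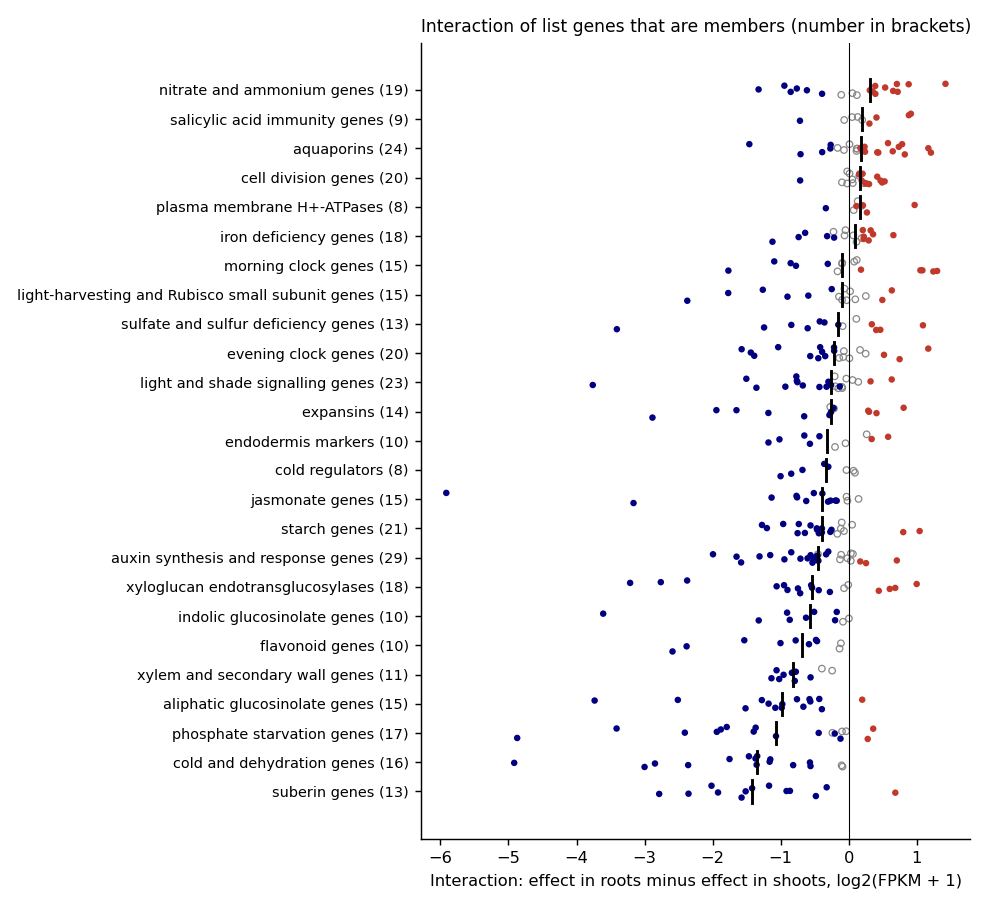
Interaction (change in roots minus change in shoots, log2(FPKM + 1)) of each listed gene expressed in both organs, for the lists with at least 8 such genes. Filled points passed the test (red above 0, blue below 0), open points did not, and black bars are medians, such as −1.35 for cold and dehydration genes and 0.31 for nitrate and ammonium genes.

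Flavonoid genes fell more in roots than in shoots. The interaction was called below 0 in 8 of 10 and above 0 in none, against 24.8% and 26.4% of all genes. The median changes were −0.43 in shoots and −1.44 in roots. Of the 10, 2 met the minimum in roots through WT alone, and both were called below 0. CHI (AT3G55120), chalcone isomerase, ranged over 18.23 to 18.6 FPKM in WT shoots and 12.2 to 12.3 FPKM in CCA1-ox shoots. Its root libraries held 19.96, 19.7 and 19.9 FPKM in WT and 1.48, 2.33 and 1.51 FPKM in CCA1-ox, so that CCA1-ox roots fell far below CCA1-ox shoots. TT7 (AT5G07990), which adds a hydroxyl group to the flavonoid ring, was at 7.33, 7.28 and 6.48 FPKM in WT roots and 0.452, 0.404 and 0.416 FPKM in CCA1-ox roots, and its shoot values overlapped. With a pseudocount of 5 the interactions of CHI and TT7 went from −2.38 and −2.59 to −1.44 and −1.19.

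Light-harvesting and Rubisco small subunit genes were included in 15 of 25 cases, since the rest missed the minimum in roots. The interaction was called below 0 in 6 and above 0 in 2, against 24.8% and 26.4% of all genes. The first count was 11 with quantile normalization and 10 with scaling to the summed fragments. Of the 15, 5 met the minimum in roots through WT alone, where they are high, and 4 of those are among the 6 below 0. LHCB1.3 (AT1G29930), a chlorophyll-binding protein, was at 12.4, 12.5 and 14.4 FPKM in WT roots and 0.791, 0.633 and 0.73 FPKM in CCA1-ox roots. Its mean shoot levels were far higher, at 17440 FPKM in WT and 11040 FPKM in CCA1-ox. Whether traces of shoot material add to its root levels was not tested. The interaction of LHCB1.3 was −2.37, or −1.0 with a pseudocount of 5. LHCB1.5, a close relative, went the other way in roots, with mean levels of 35.5 and 65.8 FPKM. These families hold near-identical copies, and fragments may be assigned to either.

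Genes of light and shade signalling had the higher change in shoots more often than in roots. Of 23 expressed in both organs 13 had a called interaction below 0 and 2 above 0, against 24.8% and 26.4% of all genes. HFR1 (AT1G02340), which restrains shade growth, was at 4.92, 5.09 and 4.8 FPKM in WT shoots and 65.4, 64.0 and 64.7 FPKM in CCA1-ox shoots. Its root ranges were 5.21 to 6.08 FPKM in WT and 4.2 to 4.61 FPKM in CCA1-ox, a small fall. ATHB2, a shade-induced transcription factor, rose by 1.48 in shoots, and its root change of −0.02 was not called. Of 29 auxin genes 19 had a called interaction below 0 and 3 above 0, with medians of 0.36 in shoots and −0.04 in roots. YUC8 (AT4G28720), an auxin synthesis enzyme, ranged over 0.488 to 0.848 and 5.2 to 5.98 FPKM in WT and CCA1-ox shoots, and its root values overlapped. The interaction of YUC8 was −1.99, or −0.92 with a pseudocount of 5. The auxin repressors IAA2 and IAA27 were higher in shoots (1.18 and 1.08) and lower in roots (−0.4 and −0.57).

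Xyloglucan endotransglucosylases and expansins loosen or rebuild cell walls. Of 18 of the first 12 had a called interaction below 0 and 4 above 0, and of 14 expansins 8 and 4, against 24.8% and 26.4% of all genes. Of the 18 endotransglucosylases 3 met the minimum in shoots through CCA1-ox alone, and all 3 were called below 0. With scaling to the summed fragments the expansin counts were 10 and 2. EXPA4 (AT2G39700) was at 26.3, 29.9 and 28.4 FPKM in WT shoots and 128, 129 and 124 FPKM in CCA1-ox shoots. In the roots it fell from 139, 138 and 141 FPKM to 79.9, 85.5 and 81.1 FPKM. WT roots held more than WT shoots, and CCA1-ox shoots more than CCA1-ox roots. XTH24 changed by 2.95 in shoots and −0.27 in roots and XTH31 by 1.54 and −0.83. XTH8, XTH16 and XTH27 had the reverse signs, with −0.36, −0.77 and −0.42 in shoots and 0.33, 0.23 and 0.18 in roots.

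Starch genes had a called interaction below 0 in 14 of 21 and above 0 in 2, against 24.8% and 26.4% of all genes. PWD (AT5G26570), a kinase that phosphorylates starch before its breakdown and whose promoter is printed above, was at 48.9, 50.02 and 50.5 FPKM in WT shoots and 78.2, 78.2 and 79.0 FPKM in CCA1-ox shoots. Root libraries held 10.9, 10.9 and 10.4 FPKM in WT and 6.43, 7.55 and 7.06 FPKM in CCA1-ox. Neither organ showed overlap. SEX1, the kinase that acts before it, changed by 0.85 and −0.43, and DPE2 and PHS2, which act on the released maltose and its glucans, by 0.41 and 0.32 in shoots and −0.15 and −0.41 in roots. APL1, a subunit of the first enzyme of starch synthesis, had the reverse signs (−0.23 and 0.57).

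Of 24 aquaporins 13 had a called interaction above 0 and 5 below 0, against 26.4% and 24.8% of all genes. With scaling to the summed fragments the counts were 9 and 7. TIP2;1 (AT3G16240), a water and ammonia channel of the vacuole, was at 1060, 1054 and 1045 FPKM in WT shoots and 879, 869 and 857 FPKM in CCA1-ox shoots. It rose from 88.0, 87.6 and 96.2 FPKM in WT roots to 183, 174 and 163 FPKM in CCA1-ox roots. TIP1;1 changed by −0.8 in shoots and 0.37 in roots, and NIP1;2 had the reverse calls (1.27 and −0.19), though its root libraries overlapped between genotypes.

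Of 19 nitrate and ammonium genes 10 had a called interaction above 0 and 6 below 0, against 26.4% and 24.8% of all genes. With scaling to the summed fragments the counts were 8 and 7. The ammonium transporter AMT1;2 (AT1G64780), whose promoter is printed above, was at 22.4, 22.4 and 20.2 FPKM in WT shoots and 15.7, 13.9 and 13.9 FPKM in CCA1-ox shoots. In the roots it rose from 64.7, 63.9 and 67.8 FPKM to 124, 120.3 and 118 FPKM, and the groups were apart in both organs. AMT1;1 and the glutamine synthetases GLN1;2 and GLN2, which assimilate ammonium, were also lower in shoots (−0.2, −0.54 and −0.55) and higher in roots (0.19, 0.18 and 0.33). The glutamine synthetase GLN1;1 (AT5G37600) had the reverse calls (0.83 and −0.11), with an interaction of −0.94. NRT1.7, which moves nitrate out of old leaves, was also higher in shoots and lower in roots (0.48 and −0.84). Its interaction of −1.32 was −0.68 with a pseudocount of 5.

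Counts of 3 further lists rest on the scaling. Over all 17142 genes 26.4% were called above 0 and 24.8% below 0. With scaling to the summed fragments 2189 were above 0 and 6879 below 0. Of 20 cell division genes 11 had a called interaction above 0 and 1 below 0, and with scaling to the summed fragments 3 and 2. The mitotic cyclin CYCB1;2 changed by −0.41 in shoots and 0.12 in roots. Of 8 plasma membrane proton pumps 4 were above 0 and 1 below 0, and with that scaling 1 and 1. Of 18 iron deficiency genes 7 were above 0 and 5 below 0, and with that scaling 3 and 8, so the larger count changed side. ZIF1, a transporter that helps store zinc in the vacuole, changed by −0.25 in shoots and 0.41 in roots.

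Of 15 morning clock genes 5 had a called interaction above 0 and 5 below 0, against 26.4% and 24.8% of all genes, and of 20 evening genes 3 and 11. Of the evening genes 3 met the minimum in shoots and 5 in roots through WT alone. ELF4 (AT2G40080), a subunit of the evening complex, fell in both organs. Its shoot range was 30.7 to 32.3 FPKM in WT against 1.44 to 2.63 FPKM in CCA1-ox, and its root range 127 to 137 FPKM against 3.1 to 3.54 FPKM. PRR5, a repressor of morning genes, changed by −0.74 in shoots and −2.17 in roots. TOC1 fell in both organs (−1.14 and −1.22) with no called difference. GI, a clock protein active toward evening, rose more in shoots (1.75 and 0.71), and LNK4, a coactivator-family gene, more in roots (0.58 and 1.88). With a pseudocount of 5 the interactions of PRR5 and LNK4 went from −1.44 and 1.3 to −0.92 and 0.61. The time of day of harvest is not known, and the WT level of a rhythmic gene depends on it.

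Rises in shoots alone included genes that were root-rich in WT. DR4 (AT1G73330), a drought-repressed gene by its RefSeq name, was at 7.22, 6.72 and 5.32 FPKM in WT shoots and 680.1, 640.4 and 639 FPKM in CCA1-ox shoots. Its root libraries held 1309, 1341 and 1377 FPKM in WT and 1494, 1444 and 1468 FPKM in CCA1-ox. The root change of 0.13 was not called (adjusted p = 0.17, limma), and CCA1-ox shoots reached 48.7% of the WT root level. MLP34 (AT1G70850), a major latex protein family gene, AT5G37990, a methyltransferase family gene, and AT4G11320, a papain-type protease gene, rose in shoots by 6.18, 6.52 and 4.24. They reached 24.5%, 128% and 53.5% of their WT root level.

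Falls in shoots alone included genes against reactive oxygen. CSD2 (AT2G28190), a copper/zinc superoxide dismutase of chloroplasts, was at 126, 128 and 139 FPKM in WT shoots and 41.3, 37.2 and 35.4 FPKM in CCA1-ox shoots, with root ranges of 89.3 to 94.8 and 84.7 to 87.9 FPKM. CAT2 (AT4G35090), the main leaf catalase, ranged over 377 to 382 and 165 to 172 FPKM in shoots and over 98.2 to 101 and 97.0 to 104 FPKM in roots, where the genotypes overlapped. ERD5, a proline dehydrogenase, and AT1G55960, a lipid transport family gene, changed by −1.15 and −1.44 in shoots.

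Falls in roots alone included a gene of fermentation. PDC2 (AT5G54960), a pyruvate decarboxylase of fermentation, was at 25.2, 24.2 and 25.02 FPKM in WT roots and 3.1, 3.33 and 3.09 FPKM in CCA1-ox roots, and its shoot ranges of 15.3 to 17.2 and 13.6 to 15.9 FPKM overlapped. UGT84A2 (AT3G21560), which attaches glucose to sinapate, and ABF1 (AT1G49720), an abscisic acid response factor, went from 21.1 to 21.8 FPKM down to 4.8 to 5.77 FPKM and from 18.8 to 19.2 down to 5.3 to 6.05 FPKM in roots. Their shoot values overlapped. Among rises, CDEF1 (AT4G30140), a lipase that breaks down cutin, was at 33.3 to 35.1 FPKM in WT roots against 75.5 to 78.5 FPKM with overexpression, and its shoot ranges of 47.5 to 50.6 and 47.5 to 50.9 FPKM overlapped.

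Among genes that moved the same way in both organs, the wall protein genes AT4G38080 and PELPK1 (AT5G09530) rose by 4.75 and 4.25 in shoots and by 0.3 and 0.36 in roots. AT1G30760, a berberine-bridge-type gene, ranged over 0.168 to 0.25 and 32.9 to 35.6 FPKM in WT and CCA1-ox shoots and over 8.62 to 8.86 and 18.3 to 20.7 FPKM in the roots, so that CCA1-ox shoots exceeded all roots. Interactions of PELPK1 and AT1G30760 went from −3.89 and −3.79 to −2.25 and −2.06 with a pseudocount of 5. XPL1 (AT3G18000), a methyltransferase of phosphocholine synthesis, changed by −2.0 in shoots and −0.12 in roots, BT2 by −2.19 and −0.67, and DIN10, a raffinose synthase family gene, by −1.97 and −0.56.

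The expression difference between the organs was narrower in CCA1-ox for most genes with a large negative interaction. Of the 815 genes at −1 or below, 673 (82.6%) had their higher WT level in roots, against 50.9% of all genes tested. In these 673 genes the median shoot level was 1.996 FPKM in WT and 7.62 FPKM in CCA1-ox, and the median root level 18.3 and 14.7 FPKM. Of the 673, 234 met the minimum in shoots through CCA1-ox alone, so the rise is in part fixed by the choice. Without these, the median shoot level of the other 439 was 4.24 FPKM in WT and 12.7 FPKM in CCA1-ox. Over all 673 genes, these 234 included, the shoot level was 14.5% of the root level in WT at the median and 64.5% in CCA1-ox. The organ difference was narrower in 572 of the 815 (70.2%), against 55.9% of all genes tested. Its sign turned in 236 of the 815, against 2341 of all 17142 genes. Of the 119 genes at 1 or above it was narrower in 60 and wider in 59. The interaction is itself the change of the organ difference, so these counts are a description.

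**Figure D5:**
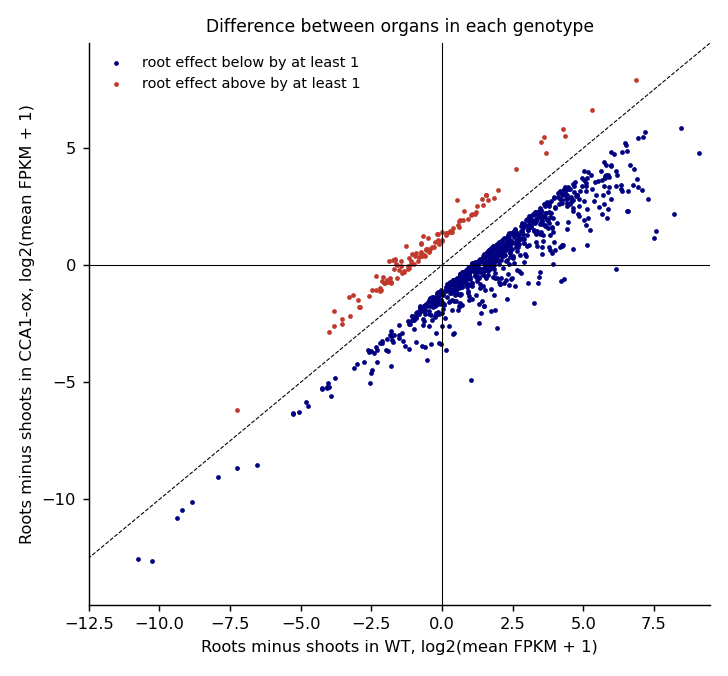
Roots minus shoots in WT (horizontal axis) and in CCA1-ox (vertical axis), log2(FPKM + 1), for the 815 genes with an interaction of −1 or below (blue) and the 119 at 1 or above (red). Of the blue points 673 lie right of 0, with the higher WT level in roots, and all blue points lie below the dashed line of equal differences.

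The sign of the interaction was the same on the untransformed FPKM scale in 8203 of the 8773 called genes (93.5%) and differed in 570. At the minimum of the choice, 214 included genes had 1 to 1.1 FPKM in the lower organ and 238 excluded ones 0.9 to 1 FPKM. Small lists were 4 CDF repressors (0 above 0 and 2 below 0), 4 SAUR genes (1 and 2) and 4 heat shock genes (2 and 1), and COW1 was the only root hair marker expressed in both organs, with an interaction above 0. Through CCA1-ox alone 638 genes met the minimum in shoots and 118 in roots, and through WT alone 130 and 293. Further named genes that met it in shoots through CCA1-ox alone include MAM3, LSU1, YUC8, PELPK1 and AT1G30760. Those that met it in roots through WT alone include RAB18, TT7 and NRT1.7, and those that met it in shoots through WT alone include COW1 and SAUR41. For each of these genes the change in that organ is in part fixed by the choice. Of the 17142 genes 981 overlap a further gene on their own strand and 5003 a gene on the other strand. Of the genes named here or under the processing settings, ABF1, AHA4, AHA11, AMT1;1, APL1, APR1, APR2, APR3, BCAT4, CAT2, CDEF1, CDF5, CESA7, CESA8, COR413IM2, CYP81F4, DIN10, EDS5, IAA27, LHCB1.3, LHCB1.5, MYC2, P5CS1, RAB18, RCI2A and TIP2;1 overlap a gene on the other strand. AT4G38080, LNK4 and PHS2 overlap one on the same strand and CESA4 one on each, so all these values may hold fragments of another gene.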

How the data were processed

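Total RNA from shoots and roots was isolated on columns with DNase treatment, and stranded libraries were made, per the labels' protocols. The deposited values are FPKM per gene, computed by the authors. The genome build is TAIR10, per the submitters' processing notes, and the sources used here give no aligner, counter or strand setting. FPKM times gene length was a whole multiple of a library constant for 100% of values (within 0.1), which gave back the fragments, 27142671 to 45051329 a library.

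The group means of log2(FPKM + 1) were modelled with limma 3.58.1 (R 4.3.3) in all 12 libraries at once, with variances moderated along a trend with mean level and 8 residual degrees of freedom. Entered were 20976 genes with at least 1 FPKM in 3 libraries or meeting the minimum in both organs. The two-sided p-values were adjusted by Benjamini-Hochberg over those genes, with a threshold of 0.05. A fold on this scale is smaller than the true one for low genes. The fit was also run on simulated fragments with known interactions in a small share of genes and no other effects. The real data differ from that setting, so the run does not measure error rates here.

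The genes, the 29 lists (582 genes, 581 in the table and 404 expressed in both organs) and the comparison were chosen with earlier results of these data known. Genes were named by a rule among called genes with 5 FPKM in both organs: the 6 with the largest smaller change in each opposite direction, 5 in each direction of the other classes, CCA1, and up to 3 a list by size of interaction, which needed no minimum. Other list genes were named after their values were seen. Symbols are those in common use, and the table has other names for some. Promoters were read from RefSeq TAIR10.1 for the 32532 of 32548 genes with the same start and end as in the table.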

Additional observations from a re-analysis of the deposited data

Results flagged for a closer look

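The test of the difference between the organs passed for 4522 genes with the higher change in roots and for 4251 with the lower change (limma, adjusted p under 0.05). The 12 genes picked for opposite changes were chosen among the called genes, so that they passed is fixed by the choice. Lower in CCA1-ox shoots and higher in CCA1-ox roots were AT5G15950 with an interaction of 2.06, AT1G72430 with 1.94, AT5G14330 with 1.87, GRF11 with 1.85, AT1G22890 with 1.54 and HR4 with 1.36. Higher in shoots and lower in roots were PDF2.1 with −6.08, AT5G44400 with −3.51, AT2G01610 with −3.33, MES9 with −3.09, AT3G45160 with −3.05 and PSK4 with −2.87.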

How the results depend on the processing

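Of the 122 genes named by the rule, 117 kept the direction and the call of their interaction under the 9 other settings and without each of the 12 libraries in turn, except that 2 of them, EXLA3 and HSP18.2, were not in the fit with a filter at 5 FPKM. CDF5 turned to 0.077 with voom on the recovered fragments and lost its call with a pseudocount of 0.1 (−0.070) and with quantile normalization (−0.25). AHA11 with scaling to the summed fragments, AHA4 with quantile normalization, SAUR41 with voom and ZAT10 with a pseudocount of 5 lost their call. With scaling to the summed fragments there were 2189 calls above 0 and 6879 below 0, 376 genes lower in shoots and higher in roots and 1774 with the reverse, and 70 interactions of at least 1. Interactions of at least 1 and of −1 or below numbered 192 and 1260 with a pseudocount of 0.1, 48 and 323 with a pseudocount of 5, and 200 and 1318 with voom. Without 1 library there were 4181 to 4390 calls above 0 and 3997 to 4111 below 0. Quantile normalization kept 83.0% of the calls with their sign. Same-numbered libraries deviated with correlations of −0.059 to 0.067 over 18 pairs, and differently numbered ones with −0.071 to 0.051 over 36 pairs. No shared deviation by number was seen, which cannot exclude that same-numbered libraries have a common origin. With a replicate block there were 4488 calls above 0 and 4217 below 0.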
